A study of Mus musculus with 22 samples.

Results

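The genes described here are the cadherins and protocadherins, calcium-dependent adhesion proteins with extracellular cadherin repeats. Members were the protein-coding genes whose symbols begin with *Cdh* and a digit or with *Pcdh*, without *Cdh5*, and 72 of the 33964 genes with counts met this rule. The annotation holds 90 such symbols, and the other 18, all alpha or gamma protocadherins, were not analysed here. The 72 comprised 5 classical type I cadherins, 12 classical type II cadherins, 6 other cadherins, 4 delta-1 protocadherins, 7 delta-2 protocadherins with *Pcdh12* counted among them, and the clustered protocadherins with 7 alpha, 22 beta and 9 gamma members.

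Classical cadherins bind the same or a related cadherin on the neighbouring cell, and their tails bind catenins that reach the actin cytoskeleton. The choroid plexus (ChP) makes cerebrospinal fluid through a single layer of epithelial cells held together by such junctions over a stroma with vessels, fibroblasts and immune cells. Protocadherins have weaker adhesion and tails that do not bind beta-catenin. The clustered protocadherins are known for giving neurons surface identities, and each alpha or gamma gene joins its own first exon to the last exons common to its cluster.

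RNA was sequenced from mouse ChP in 2 models of changed *Otx2*, the gene of a homeodomain transcription factor of this tissue. In the first, 3-month-old *Otx2* lox/lox mice (strain S129 by the labels) received Cre-Tat, a cell-permeable recombinase, or vehicle into the lateral ventricles, and the lateral ventricle (LV) and 4th ventricle (4V) ChPs were dissected 15 days later. All 4 of these groups carried the lox/lox alleles, and each had 2 pools, of 5 mice after Cre-Tat and 4 after vehicle. By the study's methods LV and 4V ChPs came from the same injected mice, and which pools share animals is not given in the sources used here. In the second, 4V ChP came from uninjected 3-month-old animals (B6D2 by the labels) in 3 groups of 2 pools: wildtype, Otx2(+/-), which are heterozygous for a GFP insertion at *Otx2* in all tissues from development on, and Otx2(+/AA), which carry an allele the labels name AA. Model, strain and sequencing run went together, so they cannot be told apart.

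The 14 pools held 10555036 to 24826595 counts over genes. All values below are counts per 1000000 (CPM) scaled by TMM factors over the 14 pools, written pool A then pool B, and levels of different genes are compared only per kb of the transcript counted. *Otx2* itself stood at 385 and 469 CPM in LV vehicle, 386 and 393 in 4V vehicle and 361 and 303 in wildtype, against 1236 and 1024 in the pools labelled LV Cre-Tat, 1202 and 1222 in those labelled 4V Cre-Tat and 1027 and 886 in those labelled Otx2(+/-). It was therefore higher in the groups labelled as knockdown, and every direction below is that of the labels. These counts are over a whole transcript. The study instead counted reads of a single exon, which is not separated here, and reported fewer of them in every knockdown group. It also listed *Otx2* among the genes significantly lower in both models. The Cre-Tat samples were checked by qPCR for reduced *Otx2*, and earlier work is cited for reduced protein. The whole-transcript counts thus ran opposite to what the study reported, and the reason was not tested. Of the ChP epithelial markers, *Aqp1* was called lower in both comparisons labelled Cre-Tat, and *Ttr* in 4V Cre-Tat and in Otx2(+/-). The 10 ChP epithelial markers summed to at least 87190 CPM in every pool, with none at 0. Of 10 neuronal markers, up to 2 were at 0 in a pool and their sum was at most 28.1 CPM. Because each pool is a piece of tissue, fewer cells of a type and less RNA per cell cannot be told apart in any result below.

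By the counts listed under each gene, the gamma cluster held the highest levels of the family per length. These counts are largely common to its genes. Of the counts of 8 gamma genes only 0.26% to 8.81% lay above the lowest count in the cluster, and 48.3% for *Pcdhgc3*. The 9 levels are therefore not separate measurements. *Pcdhgc3*, a C-type gamma gene, averaged 46.0 CPM per kb over the 14 pools (SD 5.16), and the other gamma members lay between 22.1 and 26.2. *Pcdh7*, a delta-1 protocadherin, followed with 21.3 (SD 4.28). Next came *Cdh3* (P-cadherin), at 14.3 (SD 6.72), and *Cdh11*, a type II cadherin of mesenchymal cells, at 11.96 (SD 7.57). *Pcdhb22* led the beta cluster with 8.42 CPM per kb, and all remaining genes were under 3. *Cdh1* (E-cadherin) averaged 2.15 and *Cdh2* (N-cadherin) 1.73, so that among the type I cadherins P-cadherin had the highest level.

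**Figure D1:**
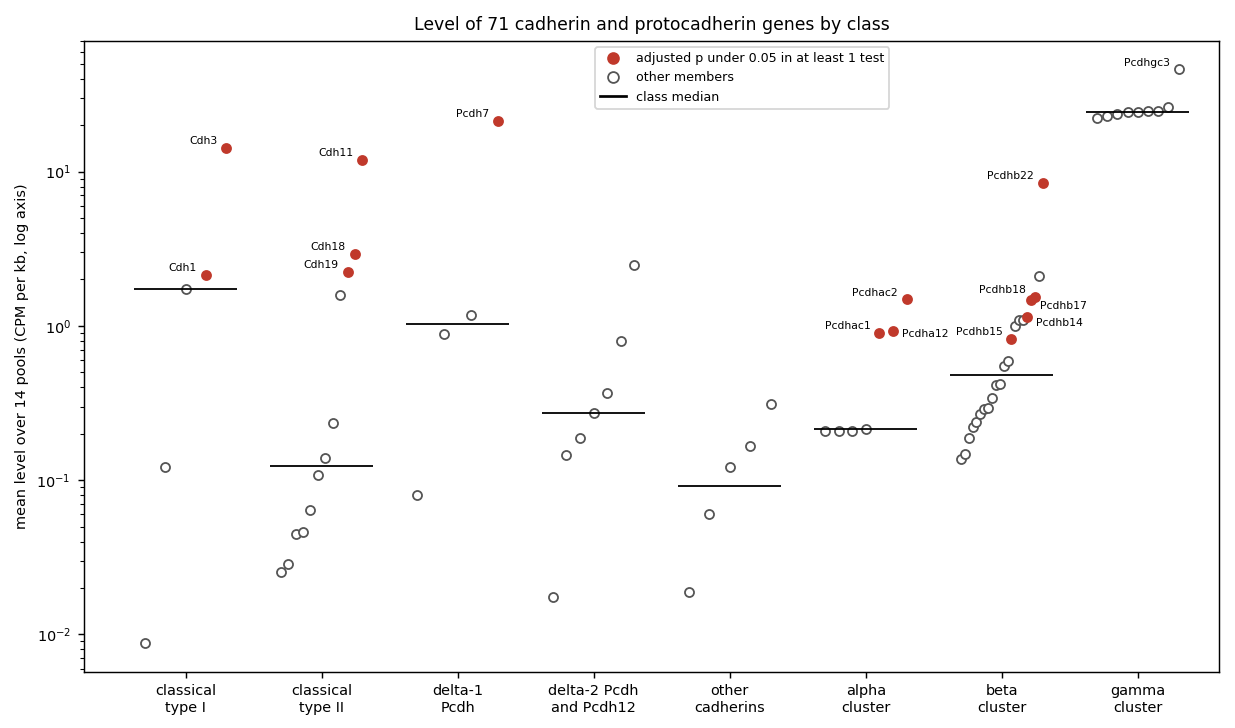
Each point is a member, placed by its mean level over 14 pools in CPM per kb on a log axis and grouped by class; black lines are class medians. The 9 gamma genes, whose counts are largely common to the cluster, lie above 22. Pcdh7, Cdh3 and Cdh11 lie between 11.96 and 21.3, and most type II, delta-2 and other cadherins below 1. Cdh16, at 0 in every pool, is not drawn.

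By class, the median level was 24.4 CPM per kb in the gamma cluster, whose genes apart from *Pcdhgc3* list nearly the same count. It was 1.73 in type I, 1.03 in delta-1, 0.484 in the beta cluster and 0.272 in delta-2 with *Pcdh12*. The alpha cluster, whose genes also share reads, had 0.214, type II 0.123 and the other cadherins 0.0914. In the beta cluster the levels ran from 8.42 for *Pcdhb22* through 0.546 for *Pcdhb7* and 0.421 for *Pcdhb13* in the middle to 0.138 for *Pcdhb2*. The type II genes were as uneven: *Cdh11*, *Cdh18*, *Cdh19* and *Cdh10* were over 1 and the other 8 below it. There were 10 members that stayed under the count filter in every group comparison. These were *Cdh7*, *Cdh8*, *Cdh9*, *Cdh12*, *Cdh20* and *Cdh22* of type II, muscle *Cdh15*, the tip-link gene *Cdh23*, *Pcdh8* and kidney *Cdh16*, with 83 counts or fewer each over all pools. Of the others, 48 were tested in all 5 group comparisons and 14 in some of them.

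Of the members that differed between the ventricles, *Pcdh7* and *Cdh18* have a promoter window in the RefSeq table (GRCm38.p6), which holds 22 of the 72 members. The windows run from 250 bases before the start to 50 after it, on the plus strand for both, and are shown because both genes were lower in LV than in 4V; capitals mark CG dinucleotides.
Pcdh7, chr5:57717831-57718130: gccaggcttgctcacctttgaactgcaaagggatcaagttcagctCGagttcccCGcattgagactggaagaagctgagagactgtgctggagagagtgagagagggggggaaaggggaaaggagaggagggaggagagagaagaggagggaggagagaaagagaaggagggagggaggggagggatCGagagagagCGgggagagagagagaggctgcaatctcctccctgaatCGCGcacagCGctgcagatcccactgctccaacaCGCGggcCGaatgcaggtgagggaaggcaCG
Cdh18, chr15:23036213-23036512: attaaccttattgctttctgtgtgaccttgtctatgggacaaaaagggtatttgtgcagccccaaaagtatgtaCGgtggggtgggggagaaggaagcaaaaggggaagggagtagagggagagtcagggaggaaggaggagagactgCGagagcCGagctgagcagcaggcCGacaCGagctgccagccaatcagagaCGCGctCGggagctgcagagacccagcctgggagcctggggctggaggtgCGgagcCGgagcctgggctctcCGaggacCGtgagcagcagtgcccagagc
*Pcdh7* had 11 CG dinucleotides and *Cdh18* had 12, against a median of 7 over all 32851 windows. Of all windows 60.4% had at most 11 and 62.1% at most 12, so neither count is unusual. Both windows were also searched for TAATCC, a core bound by OTX homeodomains, and its complement GGATTA, and neither holds these letters. Of the members with a window, *Cdh7* and *Cdh26* held a match, and so did 7.06% of all windows. A match or its lack here describes letters only.

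The alpha and gamma genes could not all be told apart in these counts, and this bears on every result for them. In the annotation all 7 alpha transcripts share 2860 bases, between 48.6% and 54.5% of their length, and the 9 gamma transcripts share 2116 bases. In the counts, *Pcdha1* and *Pcdha9* differed by at most 1 count in any pool, in a range of 4 to 57, and *Pcdha1* differed from *Pcdha11* by at most 3 and from *Pcdha2* by at most 7. *Pcdha12* and *Pcdhac1* differed by at most 8 counts in a range of 29 to 195, although their first exons are separate. Subtracting the lowest count of the cluster in each pool left 2058 of the 2351 counts of *Pcdhac2* (87.5%) and 1022 of 1315 for *Pcdhac1* (77.7%), but 7 of 300 for *Pcdha9*. It left 1039 of 1332 for *Pcdha12*, still nearly the counts of *Pcdhac1*. The subtraction therefore does not isolate a gene, and counts common to several genes may remain in what is left. In the gamma cluster it left 28103 of 58144 counts for *Pcdhgc3* (48.3%) and between 0.26% and 8.81% for each of the other 8. The levels of those 8 genes are thus nearly the same count listed under different names.

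**Figure D2:**
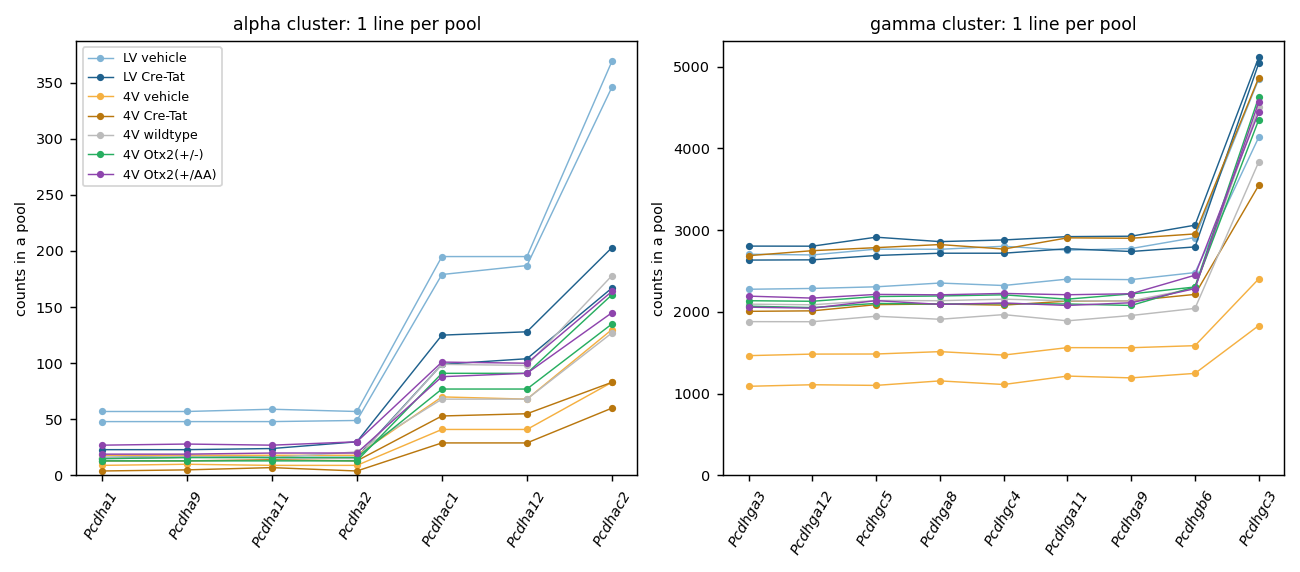
Counts of each alpha gene (left) and gamma gene (right), ordered by total, with 1 line per pool coloured by group. The lines are flat over Pcdha1, Pcdha9, Pcdha11 and Pcdha2 and over all gamma genes but Pcdhgc3, which rises to between 1834 and 5117 counts.

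The first question was whether these genes differed between Cre-Tat and vehicle in LV ChP. *Pcdhac2*, a C-type alpha protocadherin, was at 16.5 and 18.3 CPM in the vehicle pools and at 6.70 and 9.31 in the pools labelled Cre-Tat. Both Cre-Tat values lay below both vehicle values, a fall of 2.18-fold (log2 fold change -1.12, SE 0.20, edgeR adjusted p = 0.00732). It was the 1 of 60 members tested that passed as lower, and 1.03% of all 14991 genes tested did. Among members 0 passed as higher, against 2.21% of all genes; 2 higher and 13 lower had an unadjusted p under 0.05, and DESeq2 called 0 higher and 1 lower. The median log2 fold change of the members was -0.14, and that of all genes 0.0044. The groups did not overlap in 31 of the 60 members tested, and the share over all genes was not computed. With 2 pools a group, lack of overlap is given here and below only as a description.

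In the alpha cluster all 7 genes had values below 0, with a median of -1.36, and the 7 share reads. *Pcdha12* was at 8.93 and 9.70 CPM in vehicle and 4.17 and 5.87 in Cre-Tat, and *Pcdha1* at 2.29 and 2.83 against 0.642 and 1.05. Neither passed the test (for *Pcdha1*, log2 fold change -1.60, adjusted p = 0.0602), and neither pair of groups overlapped. With no filter on low counts 7 members passed, all lower, and without the second Cre-Tat pool 7 passed too, among them *Pcdha12*, *Pcdhac1* and *Cdh3*. With the lowest count of the cluster subtracted, an alternative chosen after the data were seen, *Pcdhac2* still passed (log2 fold change -1.05, edgeR adjusted p = 0.0124) and *Pcdhac1* did not (-0.71, adjusted p = 0.185). What is left of *Pcdhac2* may still hold counts common to other alpha genes.

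The beta cluster had 21 of 22 log2 fold changes below 0 in LV, with a median of -0.39 and a smallest adjusted p of 0.21; 5 were lower at an unadjusted p under 0.05 and DESeq2 called 0. *Pcdhb18* was at 15.6 and 15.4 CPM in vehicle and 12.04 and 11.6 in Cre-Tat. The 9 gamma values lay between -0.07 and -0.0040, and *Pcdhgc3* was at 198 and 241 against 205 and 231 CPM, with full overlap. Of the classical cadherins, *Cdh3* had 45.5 and 43.1 CPM against 26.1 and 34.6, without overlap and without passing (log2 fold change -0.54, 95% interval -0.88 to -0.20, adjusted p = 0.125). *Cdh2* had 9.07 and 10.04 against 13.0 and 13.7 (log2 fold change 0.48, adjusted p = 0.226).

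In 4V ChP 4 members were lower in the pools labelled Cre-Tat. *Cdh3* was at 66.6 and 56.5 CPM in vehicle and at 35.0 and 39.2 in Cre-Tat. The groups did not overlap, and the fall was 1.66-fold (log2 fold change -0.73, SE 0.14, edgeR adjusted p = 0.00226). *Pcdhac2* was at 9.63 and 7.66 against 3.26 and 4.18 CPM, a fall of 2.32-fold (log2 fold change -1.22, SE 0.24, adjusted p = 0.00294). *Pcdhb22* went from 27.3 and 29.6 to 19.5 and 16.5 CPM (log2 fold change -0.66, SE 0.16, adjusted p = 0.0117). *Pcdhac1* went from 5.19 and 3.78 to 1.57 and 2.67 CPM (log2 fold change -1.08, SE 0.33, adjusted p = 0.0404).

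These 4 were among 57 members tested, and 4.99% of all 14537 genes tested were called lower there. The groups did not overlap in 31 of the 57, and the share over all genes was not computed. As higher, 0 members passed where 5.7% of all genes did, with 2 members higher and 11 lower at an unadjusted p under 0.05; DESeq2 called 0 higher and 3 lower. The median of the members was -0.09, and that of all genes 0.0061. *Pcdhac2* passed in each of 13 other fits, *Cdh3* in all but the one without the first vehicle pool, *Pcdhb22* in 11 and *Pcdhac1* in 8. Here and below these fits do not include the one with files as attached to the sample titles, which is given at the end. *Pcdhb22* was lost without the second Cre-Tat pool and without the second vehicle pool (highest adjusted p 0.0603). Leaving out that vehicle pool left 2 calls. Scaling by total counts, without TMM, gave 2 members higher (*Pcdh7*, log2 fold change 0.49, and *Pcdhgc3*, 0.48) and 3 lower.

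In 4V the log2 fold changes of the alpha genes lay below 0 and those of the gamma genes above it. Genes of each cluster share reads, and all gamma genes but *Pcdhgc3* hold nearly the same count, so they are not separate measurements. The 9 gamma values lay between 0.20 and 0.34, and none passed (smallest edgeR adjusted p 0.169, 1 at an unadjusted p under 0.05, and 0 called by DESeq2). *Pcdhgc3* was at 178 and 169 CPM in vehicle and 193 and 245 in Cre-Tat, so the groups did not overlap. After subtraction of the lowest count of the cluster, the rest of *Pcdhgc3* was at 69.1 CPM in vehicle (SD 0.70) and 96.7 in Cre-Tat (SD 18.4), and this difference passed (log2 fold change 0.49, adjusted p = 0.0363). The small rests of 2 other C-type genes passed as well: *Pcdhgc5* went from 1.25 CPM (SD 0.33) to 4.69 (SD 0.34; log2 fold change 1.89, adjusted p = 0.00107) and *Pcdhgc4* from 1.27 (SD 1.07) to 4.10 (SD 0.031; log2 fold change 1.75, adjusted p = 0.0114). These rests are 2.73% and 2.92% of the counts listed for the genes. In the 4V vehicle pools they were 20 and 11 counts for *Pcdhgc5* and 7 and 22 for *Pcdhgc4*. Without subtraction neither gene passed (edgeR adjusted p = 0.287 and 0.299). The subtraction was chosen after the data were seen. *Pcdh7* was at 125 and 137 CPM against 155 and 178, also without overlap (log2 fold change 0.35, 95% interval 0.09 to 0.61, adjusted p = 0.12). *Cdh11* (31.8 and 32.9 against 36.9 and 25.1) and *Cdh1* (8.89 and 8.95 against 13.4 and 8.11) overlapped between the groups.

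Other markers moved with these differences. The 10 epithelial markers summed to 222100 to 231500 CPM in LV vehicle and 123400 to 165000 in LV Cre-Tat, with 4 of 10 lower and 0 higher. In 4V the sums were 184700 to 218300 against 87190 to 98260, with 9 of 10 lower. Of 8 immune markers, 3 were higher in LV (summed 91.7 to 121.5 against 191.7 to 244.6 CPM) and 6 in 4V (74.4 to 79.7 against 138.5 to 199.3), and none of these markers was at 0. Of 7 astrocyte and ependymal markers, 3 were higher in LV (*Aqp4*, *Foxj1* and *Slc1a2*) and 4 in 4V (*Aqp4*, *Foxj1*, *Gfap* and *Slc1a3*), with *Aldh1l1* lower in both and none at 0. Their sums were 174.8 to 202.6 against 251.3 to 290.6 CPM in LV and 202.9 to 244.2 against 311.9 to 324.0 in 4V. Of 10 neuronal markers, *Slc17a6* and *Snap25* were higher among 7 tested in LV (sums 18.8 to 19.7 against 24.4 to 28.1 CPM), and *Syt1* was lower among 3 tested in 4V (13.6 to 25.0 against 11.8 to 13.3). Of 7 stromal markers tested, *Col1a2* was higher and *Pdgfra* lower in both ventricles. Stromal sums were 589.6 to 625.7 against 561.2 to 570.6 CPM in LV and 496.8 to 517.4 against 441.4 to 488.7 in 4V. Of 8 endothelial markers, *Plvap* was higher in 4V (sums 129.5 to 145.0 against 129.3 to 149.2 CPM) and none was called in LV. The part of these markers in the cadherin results was not tested.

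**Figure D3:**
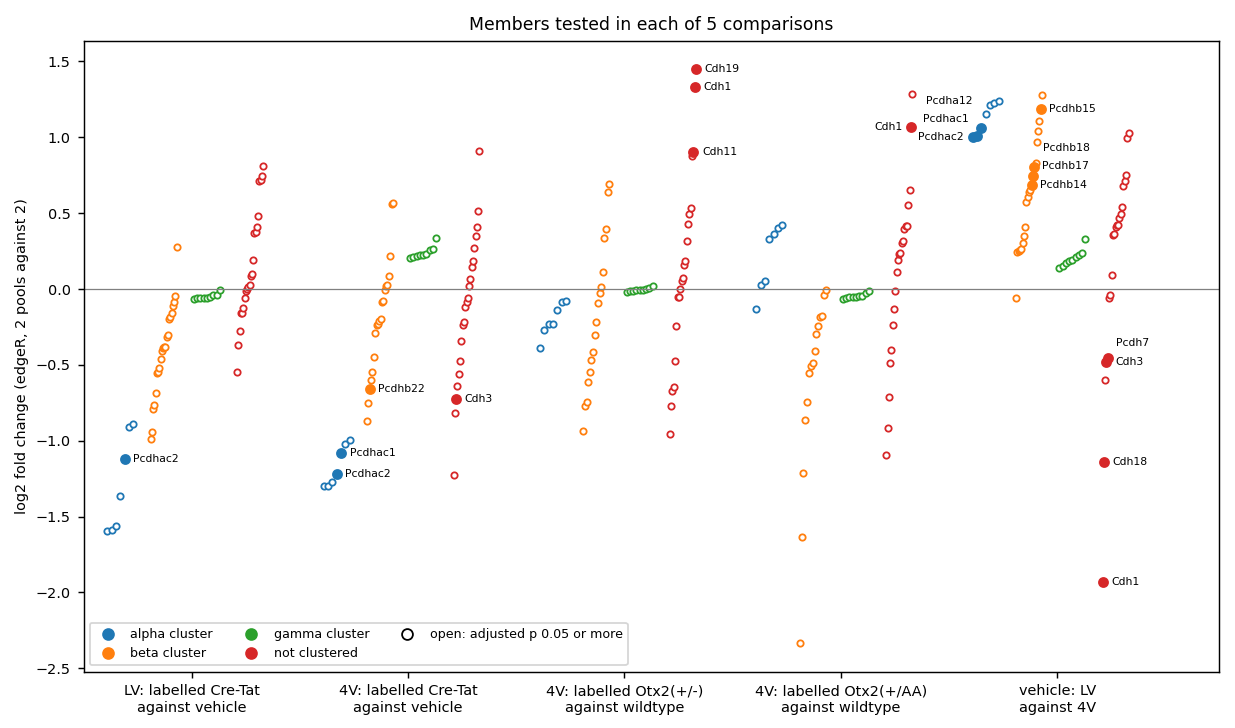
Log2 fold changes of the members tested in each of 5 comparisons, from edgeR with 2 pools against 2, coloured by cluster; filled and named points have an adjusted p under 0.05. Alpha genes lie between -1.60 and -0.89 in both Cre-Tat comparisons and between 1.00 and 1.24 for LV against 4V, while gamma genes stay between -0.07 and 0.34 throughout.

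Whether the Cre-Tat difference itself differed between LV and 4V was tested as an interaction. It called 0 of 63 members by edgeR and 0 by DESeq2, with 3 at an unadjusted p under 0.05, and 0.00643% of all genes passed. For *Pcdhac2* the difference between the ventricles was -0.10 on the log2 scale (95% interval -0.70 to 0.51), and for *Cdh3* it was -0.19 (-0.63 to 0.26). Differences of the sizes inside these intervals cannot be seen at this number of pools. Each Cre-Tat comparison has its own vehicle pools, but LV and 4V came from the same sets of injected mice, and this fit treats all pools as separate.

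In uninjected mice 3 members were higher in Otx2(+/-). *Cdh19*, a type II cadherin known from neural crest derivatives, was at 7.46 and 6.75 CPM in wildtype 4V ChP and 19.8 and 19.0 in the pools labelled Otx2(+/-). This was 2.73-fold higher, without overlap (log2 fold change 1.45, SE 0.16, edgeR adjusted p = 0.00186). *Cdh11* was at 67.3 and 81.0 CPM against 135 and 141, or 1.87-fold higher (log2 fold change 0.90, SE 0.13, adjusted p = 0.00676). *Cdh1* was at 7.10 and 7.99 against 23.1 and 14.7 CPM, or 2.52-fold higher (log2 fold change 1.33, SE 0.23, adjusted p = 0.0174). All 3 passed in each of 13 other fits.

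Of 54 members tested these 3 were higher, where 1.79% of all 14561 genes were. The groups did not overlap in 22 of the 54, and the share over all genes was not computed. As lower, 0 passed where 1.74% of all genes did; 4 higher and 3 lower had an unadjusted p under 0.05, and DESeq2 called 3 higher and 1 lower. That one was *Cdh3*, at 90.1 and 100.004 CPM in wildtype and 50.8 and 70.6 in Otx2(+/-), which missed the threshold in edgeR (log2 fold change -0.65, SE 0.16, adjusted p = 0.0697). *Cdh18*, a type II cadherin of the brain, was at 8.51 and 7.14 against 4.54 and 4.62 CPM (log2 fold change -0.77, adjusted p = 0.0747). The count was 5 without either wildtype pool. The median of the members was -0.02 and that of all genes -0.0007.

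Of the clustered genes, 7 alpha, 17 beta and 9 gamma were tested here, and 0 were called by edgeR or DESeq2, with 1 beta gene at an unadjusted p under 0.05. *Pcdhac2* was at 6.63 and 10.01 CPM in wildtype and 8.12 and 6.93 in Otx2(+/-), with overlap (log2 fold change -0.14, 95% interval -0.59 to 0.31, adjusted p = 0.804). The 9 gamma values lay between -0.02 and 0.02, and for *Pcdhgc3* the 95% interval was -0.20 to 0.25. *Pcdhb22* was at 11.8 and 11.1 against 9.84 and 7.29 CPM (log2 fold change -0.42, adjusted p = 0.287). Epithelial markers summed to 188600 to 199500 CPM in wildtype and 124600 to 132300 in Otx2(+/-), with 3 of 10 lower. Of the 8 stromal markers 7 were tested and 2 were higher, *Col1a2* and *Col3a1*, with sums of 727.5 to 800.0 against 1007 to 1109 CPM; *Dpt* was at 0 in 8 of the 14 pools. Of the 7 astrocyte and ependymal markers 3 were higher, *Aqp4*, *S100b* and *Slc1a3*, with a median log2 fold change of 0.78 and sums of 337.9 to 348.6 against 322.9 to 430.4 CPM. *Mrc1* was the 1 of 8 immune markers called, as higher (sums 119.5 to 130.1 against 137.2 to 140.5 CPM). Their part in the *Cdh1*, *Cdh11* and *Cdh19* values was not tested.

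The 4V difference under the labels of each model was compared directly in an interaction of treatment and model. *Cdh19* was the 1 of 61 members that passed, and 1.61% of all genes did. In 4V it was at 6.74 and 4.52 CPM in vehicle and 4.83 and 3.33 in Cre-Tat, a log2 fold change of -0.48 that did not pass, against 1.45 in Otx2(+/-). The difference was -1.94 (SE 0.32, 95% interval -2.57 to -1.31, edgeR adjusted p = 0.00973). It was not called without the first 4V vehicle pool (adjusted p = 0.09). *Cdh11* had a difference of -0.97 (adjusted p = 0.0631), which DESeq2 called, and *Pcdhac2* one of -1.09 (adjusted p = 0.169).

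Mice with the AA allele were compared with the same wildtype pools, and 1 member was called. *Cdh1* was at 15.9 and 16.0 CPM in the pools labelled Otx2(+/AA), above the 7.10 and 7.99 of wildtype, or 2.10-fold higher (log2 fold change 1.07, SE 0.18, edgeR adjusted p = 0.0277). It was lost in the fit without the first Otx2(+/AA) pool and in the fit with all groups of the run (highest adjusted p 0.105). This was 1 of 52 members tested, where 0.173% of 14482 genes were higher. As lower, 0 members passed where 0.173% of all genes did, with 3 higher and 5 lower at an unadjusted p under 0.05 and 2 higher and 0 lower by DESeq2. *Cdh11*, at 121 and 114 CPM, was the second by DESeq2 (edgeR log2 fold change 0.65, adjusted p = 0.077). *Cdh19* was at 9.98 and 8.86 CPM (log2 fold change 0.40, adjusted p = 0.615) and *Cdh3* at 94.96 and 124 (0.19, adjusted p = 0.813).

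All 15 beta genes tested had log2 fold changes below 0 in Otx2(+/AA), with a median of -0.49 and a smallest adjusted p of 0.0803; 4 were at an unadjusted p under 0.05 and DESeq2 called 0. The median over all 52 members was -0.05 and that of all genes -0.0057. Epithelial markers summed to 154300 to 157600 CPM in these pools, with 0 of 10 called by edgeR, and *Otx2* was at 339 and 356 CPM. For the 3 annotated transcripts of *Cdh1* the log2 ratio of mean CPM was 1.07, 1.04 and 1.31 in Otx2(+/AA). It was 1.32, 1.17 and 1.05 in Otx2(+/-). Transcripts of a gene can count the same reads, so these are not separate measurements.

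Between the ventricles, in vehicle pools, 11 members differed, the most of the 5 group comparisons. These pools are also the controls of the Cre-Tat comparisons, so the values below repeat those given there. *Cdh1* was at 8.89 and 8.95 CPM in 4V and 2.05 and 2.64 in LV, or 3.81-fold lower in LV without overlap (log2 fold change -1.93, SE 0.25, edgeR adjusted p = 0.000327). *Cdh18* was at 14.7 in both 4V pools and at 6.97 and 6.37 CPM in LV (log2 fold change -1.14, SE 0.18, adjusted p = 0.00183). *Cdh3* was lower in LV by 1.39-fold (66.6 and 56.5 against 45.5 and 43.1 CPM, adjusted p = 0.0367) and *Pcdh7* by 1.37-fold (125 and 137 against 95.3 and 96.3 CPM, adjusted p = 0.0319). *Cdh1* and *Cdh18* passed in each of 13 other fits, *Pcdh7* in 9 and *Cdh3* in 8. The fit with files as attached is not among the 13. In it *Cdh1* (log2 fold change 0.457), *Cdh18* (0.109) and *Cdh3* (0.104) had the other sign. With the pool letter as a replicate block 17 members passed, but it is not known whether a letter names the same mice in both ventricles.

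The 7 members higher in LV were all clustered protocadherins. *Pcdhac2* was at 9.63 and 7.66 CPM in 4V and 16.5 and 18.3 in LV, or 2.00-fold higher (log2 fold change 1.00, SE 0.18, adjusted p = 0.00372). *Pcdha12* (5.04 and 3.78 against 8.93 and 9.70 CPM, 2.09-fold) and *Pcdhac1* (5.19 and 3.78 against 8.55 and 9.70 CPM, 2.01-fold) had nearly the same counts and count as one measurement. In the beta cluster *Pcdhb15* was at 2.74 and 2.12 against 6.45 and 4.72 CPM, 2.27-fold higher in LV. *Pcdhb18* was at 7.93 and 9.88 against 15.6 and 15.4, 1.75-fold higher. *Pcdhb17* (6.96 and 8.31 against 13.8 and 11.7) and *Pcdhb14* (13.4 and 11.3 against 19.3 and 20.7) were 1.68-fold and 1.61-fold higher. No pair of groups overlapped in any of these, as was so for 44 of the 58 members tested. The share over all genes was not computed. *Pcdhac2* passed in each of 13 other fits, *Pcdha12* in 12, *Pcdhac1*, *Pcdhb14* and *Pcdhb18* in 11, and *Pcdhb15* and *Pcdhb17* in 8 (highest adjusted p 0.181 and 0.161). With total counts all 4 beta genes were lost.

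**Figure D4:**
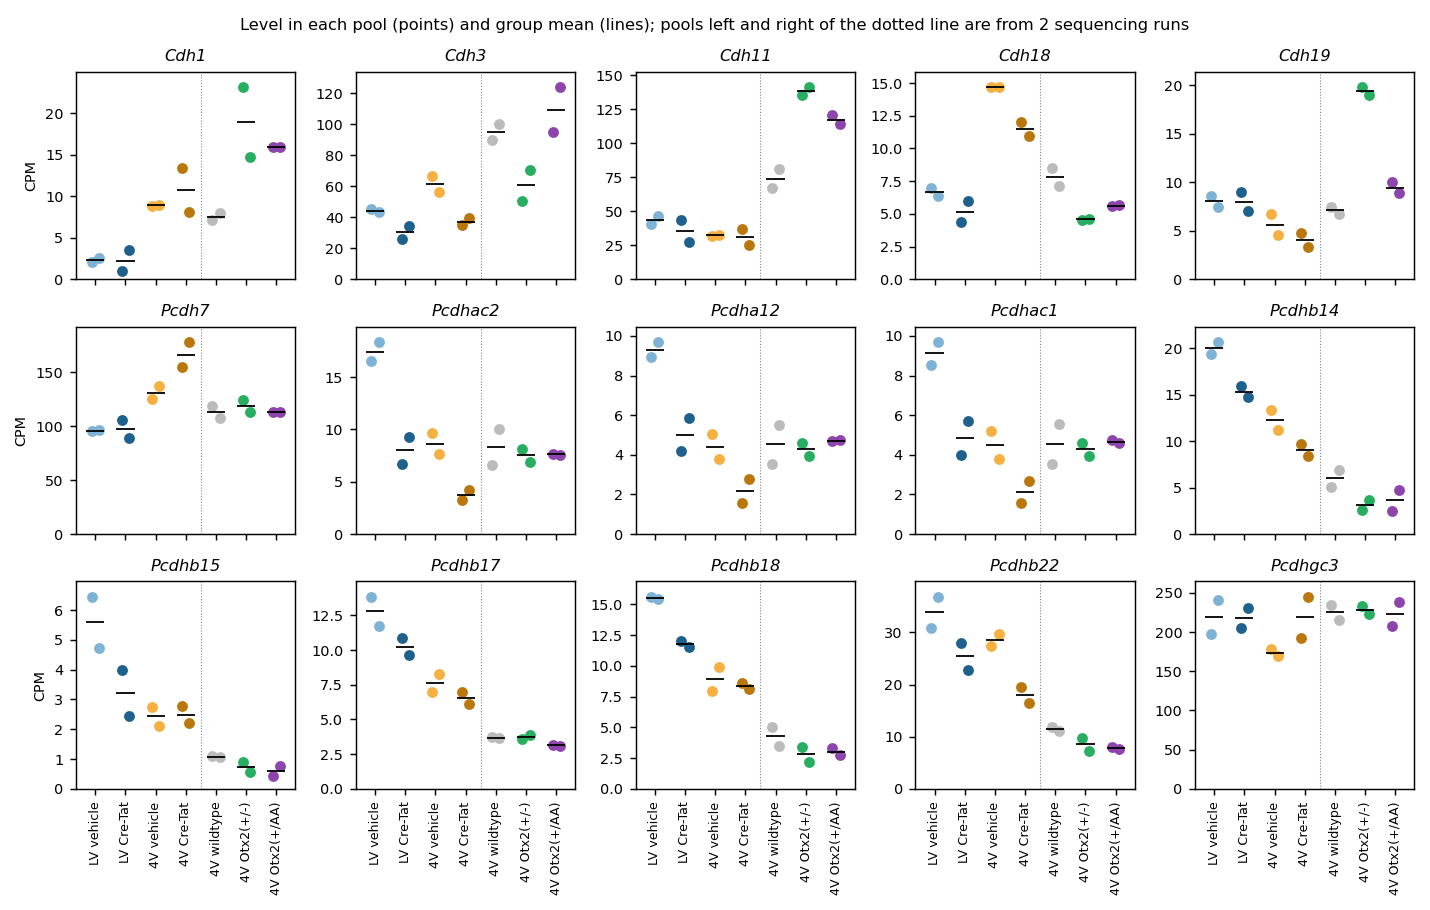
CPM in each pool (points, A then B) and group means (lines) for the 14 members called in at least 1 test and for Pcdhgc3; each axis starts at 0, and the dotted line separates the sequencing runs. Cdh1 is lowest in both LV groups, Cdh19 and Cdh11 are highest in Otx2(+/-), and Pcdhac2 is highest in LV vehicle and lowest in 4V Cre-Tat.

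Of 58 members tested, 7 (12.1%) were higher in LV where 3.5% of all 14548 genes were, and 4 (6.90%) were lower where 4.02% of all genes were. These shares count each gene separately, although *Pcdha12* and *Pcdhac1* had nearly the same counts, as did 8 of the gamma genes. The median log2 fold change of the members was 0.42, against 0.0056 for all genes. In the beta cluster 20 of 21 values were above 0, and in the gamma cluster all 9 were, from 0.14 to 0.33. The count depended on the 4V pools: 4 members passed without the second 4V vehicle pool and 6 without the first. With total counts, which moved the median of all genes to -0.19, 3 were higher and 4 lower. After subtraction of the lowest count of the cluster, *Pcdhgc3* was higher in LV as well (97.9 against 69.1 CPM, log2 fold change 0.50, edgeR adjusted p = 0.0268). This subtraction was chosen after the data were seen. Endothelial markers were also higher in LV, 3 of 8, with sums of 129.5 to 145.0 CPM in 4V and 201.0 to 226.7 in LV and none at 0, and 1 of 10 epithelial markers, *Cldn2*, was higher. Other markers called higher in LV were *Dcn* (stroma), *Csf1r* (immune), *Slc1a2* and *Slc1a3* (astrocyte and ependyma) and *Mobp* (oligodendrocyte). *Aldh1l1* was lower, and no mural or neuronal marker was called. The part of all these markers in the member values was not tested.

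Partners of these proteins were taken from a list of 53 genes. The catenins *Ctnna1*, *Ctnnb1*, *Ctnnd1* and *Jup* bind classical cadherin tails or link them to actin. They gave log2 fold changes between -0.24 and 0.26 in the 5 comparisons, with no edgeR adjusted p under 0.214. For *Ctnnb1* (beta-catenin) the means were 741 CPM in 4V vehicle and 685 in 4V Cre-Tat. The list also includes giant cadherins, desmosomal genes, nectins and calsyntenins. In LV Cre-Tat 1 of 41 tested was lower, where 1.03% of all genes were, and 0 were higher, where 2.21% were. In 4V Cre-Tat 3 of 38 were lower, where 4.99% of all genes were, and 1 was higher, where 5.7% were.

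*Clstn3*, a calsyntenin with cadherin repeats that acts at synapses, was lower in both Cre-Tat comparisons, from 21.3 to 12.2 CPM in LV (log2 fold change -0.80, adjusted p = 0.0229) and from 41.2 to 22.0 in 4V (-0.90, adjusted p = 0.000514). In 4V *Dsp*, the desmoplakin that ties desmosomal cadherins to intermediate filaments, fell by 0.66 on the log2 scale (adjusted p = 0.0331) and the motor gene *Myo7a* by 0.51 (adjusted p = 0.0214). *Arvcf*, a catenin of the p120 family, was 1.56-fold higher there (adjusted p = 0.00475). In Otx2(+/-) 2 of 41 partners were lower, where 1.74% of all genes were, and 1 was higher, where 1.79% were. *Dsp* went from 141 CPM in wildtype to 55.6, or 2.53-fold lower (log2 fold change -1.34, adjusted p = 0.003). *Cib2*, a partner of the hair cell tip-link complex, was lower (-0.95, adjusted p = 0.0347), and the giant cadherin *Fat4* was higher (0.79, adjusted p = 0.0279). In Otx2(+/AA) 0 of 41 were called by edgeR, where 0.173% of all genes were in either direction.

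Between the ventricles 3 of 39 partners were lower in LV, where 4.02% of all genes were, and 1 was higher, where 3.5% were. The giant cadherin *Fat1* went from 652 CPM in 4V to 284 in LV, or 2.30-fold lower (adjusted p = 4.68e-05). *Clstn3* (log2 fold change -0.96, adjusted p = 0.000924) and *Afdn* (afadin, -0.50, adjusted p = 0.0272) were lower as well. The desmosomal cadherin *Dsc2* was higher, from 0.573 to 2.26 CPM (3.89-fold, adjusted p = 0.0228). The partners named for Otx2(+/-) and between the ventricles were chosen after their values were seen.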

How the data were processed

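RNA of mouse ChP pools was sequenced as 50-base reads. The labels name ribosomal RNA depletion and a strand-specific kit, while the study's methods name polyA+ mRNA purification. Which of these was used is not settled here. The authors deposited whole-number counts per Ensembl transcript; the submitters' processing notes name bcl2fastq 1.8.4, Bowtie 0.12.9, SAMtools, HTSeq 0.5.3, DESeq 1.8.3 and build mm10. A read in exons shared by transcripts was countable under several. The 16 files of the injected mice were assigned by the library number in their names, since 14 are attached to samples of other titles, and the 2 runs of a pool were summed.

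Transcripts were given symbols from GENCODE vM21 (82807 of 95533 matched, 89.5% of counts), and each gene was represented by the transcript with most counts. Each comparison was fitted on its own pools in edgeR 4.0.16 (quasi-likelihood, TMM, filterByExpr), and p-values were adjusted by Benjamini-Hochberg over all genes tested. Intervals are 1.96 SE. With 2 pools against 2 an exact permutation test cannot go below 0.333, so none was used; nothing ties a p-value to more than the spread between pools. Scripts were tested on simulated data. Named genes were members called in any of 7 tests, the 10 highest per length, the lowest, middle and highest of each cluster, and, of the partners, 4 catenins and those called after Cre-Tat. Other members, such as *Pcdhb16*, *Pcdh1*, *Pcdh12*, *Pcdh20*, *Cdh10* and *Cdh2*, fall outside this rule and were named with their values known. Members, lists and tests were chosen with earlier results of these data known. Alternatives were other scalings, filters and transcripts, DESeq2 1.42.0, a replicate block, pools left out, all groups of a run together and files as attached.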

Additional observations from a re-analysis of the deposited data

Results flagged for a closer look

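*Cdh19* stood out because its 4V difference under the labels was not the same in the 2 models, by a test of that difference itself: -1.94 on the log2 scale (edgeR adjusted p = 0.00973), from 4.83 and 3.33 CPM in Cre-Tat against 6.74 and 4.52 in vehicle, and 19.8 and 19.0 in Otx2(+/-) against 7.46 and 6.75 in wildtype. Strain, injection and sequencing run went with the model and cannot be told apart from it. Groups of 2 pools were too small to look for a single pool that lay apart.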

How the results depend on the processing

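Across 13 other fits of their own pools (interactions more), 8 of the 21 called differences stayed called in every one. The fit with the files as attached is not counted among these. No called member changed sign except with the files as attached. With no filter on low counts the members called were 7 in LV Cre-Tat, 3 in Otx2(+/AA), 19 for LV against 4V and 4 for the model interaction. DESeq2 called 2 in Otx2(+/AA) and 2 in the model interaction. Total counts gave 7 for LV against 4V and all groups of a run together 0 in Otx2(+/AA). Subtraction of the lowest cluster count, chosen after the data were seen, gave 2 in the model interaction, *Cdh19* and *Pcdhgc5*. Leaving out 1 pool at a time gave 1 to 7 calls in LV Cre-Tat, 2 to 5 in 4V Cre-Tat, 3 to 5 in Otx2(+/-), 0 to 3 in Otx2(+/AA) (0 without its first pool), 4 to 13 for LV against 4V, 0 to 2 in the model interaction (0 without the first 4V vehicle pool) and 0 throughout in the ventricle interaction. Total counts moved the median of all genes to 0.17 in LV Cre-Tat, 0.15 in 4V Cre-Tat, 0.11 in Otx2(+/AA) and -0.19 for LV against 4V. The cause was not tested.

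With the pool letter as a replicate block the members called were 6, 9, 7, 4 and 17 in the 5 group comparisons in the order above. The sources used here do not say whether LV and 4V pools of one letter hold the same mice, and the other letters only name pools; the same-letter correlations of -0.116, 0.1, 0.288, 0.05 and 0.065 fell on both sides of 0.

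With the files as attached to the sample titles, the groups hold other libraries by construction, and both pools of an injected group come from the same libraries. The calls were then 34 in LV Cre-Tat, 33 in 4V Cre-Tat, 16 in the model interaction and 5 in the ventricle interaction. The median log2 fold change of the members became 0.54 in LV Cre-Tat, 0.48 in 4V Cre-Tat and 0.02 for LV against 4V. Log2 fold changes with the other sign in LV Cre-Tat were *Cdh11* 0.288, *Cdh19* 0.643, *Pcdh7* -0.491, *Pcdha1* 1.015, *Pcdha12* 1.064, *Pcdha2* 1.037, *Pcdhac1* 0.969, *Pcdhac2* 0.913, *Pcdhb13* 0.705, *Pcdhb14* 0.64, *Pcdhb15* 0.89, *Pcdhb17* 0.815, *Pcdhb18* 0.717, *Pcdhb22* 0.363, *Pcdhb7* 0.862, *Pcdhgc3* 0.117. For 4V Cre-Tat they were *Cdh1* -1.444, *Cdh11* 0.4, *Cdh19* 0.95, *Pcdh7* -0.814, *Pcdha1* 1.408, *Pcdha12* 1.303, *Pcdha2* 1.529, *Pcdhac1* 1.319, *Pcdhac2* 1.338, *Pcdhb14* 0.906, *Pcdhb17* 0.627, *Pcdhb18* 0.622, *Pcdhb22* 0.486. For LV against 4V they were *Cdh1* 0.457, *Cdh18* 0.109, *Cdh3* 0.104, *Pcdha12* -0.032, *Pcdhb18* -0.058, *Pcdhga11* -0.204, *Pcdhga12* -0.189, *Pcdhga3* -0.169, *Pcdhga8* -0.187, *Pcdhga9* -0.193, *Pcdhgb6* -0.192, *Pcdhgc3* -0.217, *Pcdhgc4* -0.174, *Pcdhgc5* -0.168. In the ventricle interaction they were *Cdh3* 0.241, *Pcdh7* -0.322, and in the model interaction *Pcdh7* -0.896, *Pcdha1* 1.63, *Pcdha12* 1.369, *Pcdha2* 1.912, *Pcdhac1* 1.394, *Pcdhac2* 1.465, *Pcdhb22* 0.892.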

Other observations

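Uninjected wildtype and vehicle-injected 4V ChP, which differ in strain, injection and sequencing run together, gave different levels of several members. *Pcdhb22* was at 11.8 and 11.1 CPM in wildtype and 27.3 and 29.6 in vehicle, *Pcdhb16* at 5.69 and 5.12 against 16.4 and 13.5, and *Pcdhb14* at 5.12 and 6.92 against 13.4 and 11.3. *Pcdh12*, a protocadherin of vascular endothelium, went the other way, at 6.89 and 6.58 against 1.48 and 1.29 CPM, as did *Pcdh1*, at 6.32 and 7.42 against 2.22 and 2.12. The 8 endothelial markers summed to 336 to 367 CPM in wildtype and 129.5 to 145.0 in vehicle. These are values only, since no pool separates the factors.

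Some members had wide spreads within a group. *Pcdh20* was at 1.36 and 0.112 CPM in the wildtype pools and 2.58 and 4.58 in LV vehicle, and *Cdh10* at 9.98 and 4.84 in 4V Cre-Tat.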
